A study of Mus musculus with 52 samples.

Results

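The miR-99/100 and miR-125 precursors are the 6 hairpins mir-99a, mir-99b, mir-100, mir-125a, mir-125b-1 and mir-125b-2, whose 5p strands are 5 different mature miRNAs. They were chosen by their miRBase accessions (MI0000146 for mir-99a, MI0000147 for mir-99b, MI0000692 for mir-100, MI0000151 for mir-125a, MI0000725 for mir-125b-1 and MI0000152 for mir-125b-2), without use of measured values, and make up 6 of the 1187 precursors counted. Earlier results of these data were known when this choice was made. The precursors were followed through 52 small RNA libraries made from gonadal white adipose tissue of C57BL/6 animals at 6 months of age. The animals carried 1 copy of a huntingtin (Htt) knock-in allele with Q80 (8 libraries), Q92 (7), Q111 (7), Q140 (7) or Q175 (8) CAG repeats, or the short Q20 allele (8), or were wild type (WT, 7). In Huntington's disease, long CAG repeats in this gene cause neurodegeneration, and fat is a peripheral tissue in this model. There were 25 female and 27 male libraries, with 3 or 4 for each genotype and sex. Gonadal fat is the periovarian depot in females and the epididymal depot in males, so sex and depot cannot be told apart. WT animals shared housing with Q20 animals, while each other genotype was kept with its own kind, so genotype and housing cannot be told apart. Separate animals behind each library are not stated in the labels, and the tests may measure only the spread between libraries.

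A miRNA guides a silencing complex to messenger RNAs that pair with its seed, the bases 2 to 8 of the mature strand. miR-99 and miR-100 share one seed and are known in mammalian cells to repress mTOR, a kinase that couples growth to nutrient and insulin signals. miR-125a and miR-125b share another seed and are the mammalian relatives of worm lin-4, with Lin28 among their known targets. The genes lie beside let-7 genes in 3 clusters, and the members of a cluster can come from 1 primary transcript.

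The mature 5p strands are shown because their seeds divide the 6 precursors into 2 families, and because identical or nearly identical strands limit how reads can be assigned. They are RefSeq sequences on build GRCm38.p6, written 5′ to 3′ with the seed in capitals.
miR-99a-5p: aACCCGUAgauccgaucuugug
miR-99b-5p: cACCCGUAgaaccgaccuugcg
miR-100-5p: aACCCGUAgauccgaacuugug
miR-125a-5p: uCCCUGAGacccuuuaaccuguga
miR-125b-5p: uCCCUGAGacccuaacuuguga
Counted from 1 at the 5′ end, miR-100-5p differs from miR-99a-5p by U16A alone. miR-99b-5p differs from miR-99a-5p at 4 positions, A1C, U11A, U16C and U21C. The seed ACCCGUA occurs in 3 of 1679 mouse mature miRNAs in the RefSeq table, all of them shown above. The seed CCCUGAG occurs in 5, the other members being miR-351-5p, miR-6367 and miR-6394. The hairpins mir-125b-1 and mir-125b-2 yield the same 5p strand, and only their 3p strands tell them apart.
miR-125b-1-3p: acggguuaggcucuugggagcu
miR-125b-2-3p: acaagucagguucuugggaccu

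The mature strands lie at chr16:77598940-77598961 (miR-99a), chr17:17830194-17830215 (miR-99b), chr9:41531437-41531458 (miR-100) and chr17:17830817-17830840 (miR-125a), and those of miR-125b at chr9:41581940-41581961 and chr16:77646279-77646300, all on the plus strand of GRCm38. Mir99a, Mirlet7c-1 and Mir125b-2 lie within 47.4 kb of chromosome 16, in introns of the non-coding host Mir99ahg. Mir100, Mirlet7a-2 and Mir125b-1 lie within 50.6 kb of chromosome 9, in introns of the non-coding genes 3110039I08Rik and Gm49317, and Mir125b-1 also overlaps an exon of Gm28119. Mir99b, Mirlet7e and Mir125a lie within 0.692 kb of chromosome 17 in the protein-coding gene Spaca6, Mir99b and Mirlet7e in an intron and Mir125a in an annotated exon. Host genes are from GENCODE M21. The files carry accessions without names. The hairpin length recovered from the counts and RPKM values equalled the RefSeq length for all 6 precursors, from 65 bases for mir-99a to 80 bases for mir-100.

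Libraries held between 1812067 and 5487948 estimated counts. The WT and Q175 libraries carry library numbers of one series and the token L5 in their column names, and the other genotypes carry numbers of another series with L1 (23 libraries, all 7 Q111 among them) or L3 (14 libraries). The tokens are read here as sequencing lanes 1, 3 and 5, although they may stand for other handling. Between WT or Q175 and the rest, genotype moves with the library series, so the effects of the 2 cannot be told apart and no test was made. On principal component 1 of all precursors, which held 45.63% of the variance, 14 male libraries and 1 female library scored above 5. That female library is labelled Q140_F replicate 2. In a single precursor, MI0005495, chosen because it separated the sexes, the 22 females and 23 males outside Q140 did not overlap, and the library labelled Q140_F replicate 2 (log2 CPM 0.29) lay among the males (-0.93 to 1.97) and the library labelled Q140_M replicate 4 (2.97) among the females (2.21 to 3.50). Both libraries go against their sex labels in this precursor. Tests of females against males and of sex by repeat length are given with and without them. Fits in females alone or in males alone include them as labelled and were not repeated without them.

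All 6 precursors were abundant, and all 6 passed the filter on low counts. By mean RPKM, a level scaled to precursor length, mir-125a ranked 9th of the 1187 precursors and mir-99b ranked 16th. mir-125b-2 ranked 18th, mir-100 ranked 28th, mir-99a ranked 34th and mir-125b-1 ranked 52nd. Over all libraries mir-125a had a median of 195850 RPKM (97360 to 385710) and mir-125b-1 a median of 18954 RPKM (7878 to 38792). The medians were 153060 RPKM for mir-99b, 102590 RPKM for mir-125b-2, 59528 RPKM for mir-100 and 39275 RPKM for mir-99a. Levels come from bulk tissue, where fewer cells of a type and less RNA per cell cannot be told apart. Together the 6 took 3.97% ± 1.38 of a library's counts (SD, n = 52), from 1.88% to 6.59%. This share was 5.08% ± 0.962 in lane 1 (SD, n = 23), 3.897% ± 0.698 in lane 3 (SD, n = 14) and 2.34% ± 0.288 in lane 5 (SD, n = 15).

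Estimated counts need not be whole, as when a read is divided between similar precursors. mir-125a had whole counts in 52 of 52 libraries and mir-99b in 50 of 52. mir-99a and mir-100, whose 5p strands differ at 1 base, had whole counts in 1 library each. mir-125b-1 and mir-125b-2, which share a 5p strand, had them in 0 of 52. Counts that are not whole may hold reads divided between copies by a rule that is not given in the sources used here, so the levels of mir-99a, mir-100, mir-125b-1 and mir-125b-2 are uncertain. No member had values identical to another precursor.

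The lane token was the one factor under which members passed edgeR's test in its main setting, in a comparison that was not planned. 4 of the 6 precursors were higher in lane 1 than in lane 3, with genotype and sex as covariates. The comparison was added after the members had been seen to differ by lane. Its p-values therefore describe the difference and are not independent support for it. DESeq2 called 4 members and 10.1% of precursors, and limma 3 members and 4.06%. In edgeR, among all 345 precursors tested, 34 (9.86%) passed the same test and 20 (5.8%) were higher in lane 1. A precursor was called where edgeR's quasi-likelihood test gave a Benjamini-Hochberg adjusted p under 0.05. Levels below are CPM, counts scaled to TMM library sizes, and are compared for 1 precursor at a time.

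mir-100 had a lowest, median and highest value of 4840, 6853 and 11819 CPM in lane 1, against 3102, 4446 and 7294 CPM in lane 3. In 9 of 14 lane 3 libraries it lay below every lane 1 library, and the groups overlapped in the rest. The log2 change was 0.70 (SE 0.11, edgeR adjusted p = 1.721e-05).

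mir-99a, which differs from miR-100 at 1 base of the mature strand, had 2635, 3381 and 4428 CPM in lane 1 (lowest, median, highest), against 2057, 2485 and 3704 CPM in lane 3. Only 1 of 14 lane 3 libraries exceeded the lane 1 median. The log2 change was 0.49 (SE 0.06, edgeR adjusted p = 5.949e-07), the 3rd smallest p of the 345 precursors.

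mir-125b-1, from the same cluster as mir-100, had 1609, 2024 and 2782 CPM in lane 1 and 1087, 1382 and 1933 CPM in lane 3. No lane 3 library reached the lane 1 median. The log2 change was 0.50 (SE 0.09, edgeR adjusted p = 9.291e-05). In males alone it was 0.36 and missed the threshold (edgeR adjusted p = 0.186).

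mir-125b-2, from the cluster of mir-99a, had 7106, 8655 and 11281 CPM in lane 1 and 5498, 7417 and 10076 CPM in lane 3. The groups overlapped widely, and the log2 change was 0.22 (SE 0.07, edgeR adjusted p = 0.0271). This call was lost in 7 of 37 fits that left out 1 library and in 6 of 11 other alternatives.

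Both chromosome 17 members missed the threshold. mir-99b had 7078, 12682 and 17148 CPM in lane 1 and 7547, 9977 and 13841 CPM in lane 3, a log2 change of 0.26 (SE 0.11, edgeR adjusted p = 0.120), and it passed without Q92_M replicate 2 (edgeR adjusted p = 0.0179). mir-125a had 8321, 15782 and 26360 CPM in lane 1 and 9376, 13897 and 21357 CPM in lane 3, a log2 change of 0.14 (95% interval -0.08 to 0.35, edgeR adjusted p = 0.510). Whether the chromosome 17 members differ from the other 4 in this change was not tested. Without the Q111 libraries, all of which are in lane 1, the same count of 4 members passed, among 30 of 339 precursors. The changes of mir-100 and mir-99a were then 0.71 and 0.51.

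**Figure D1:**
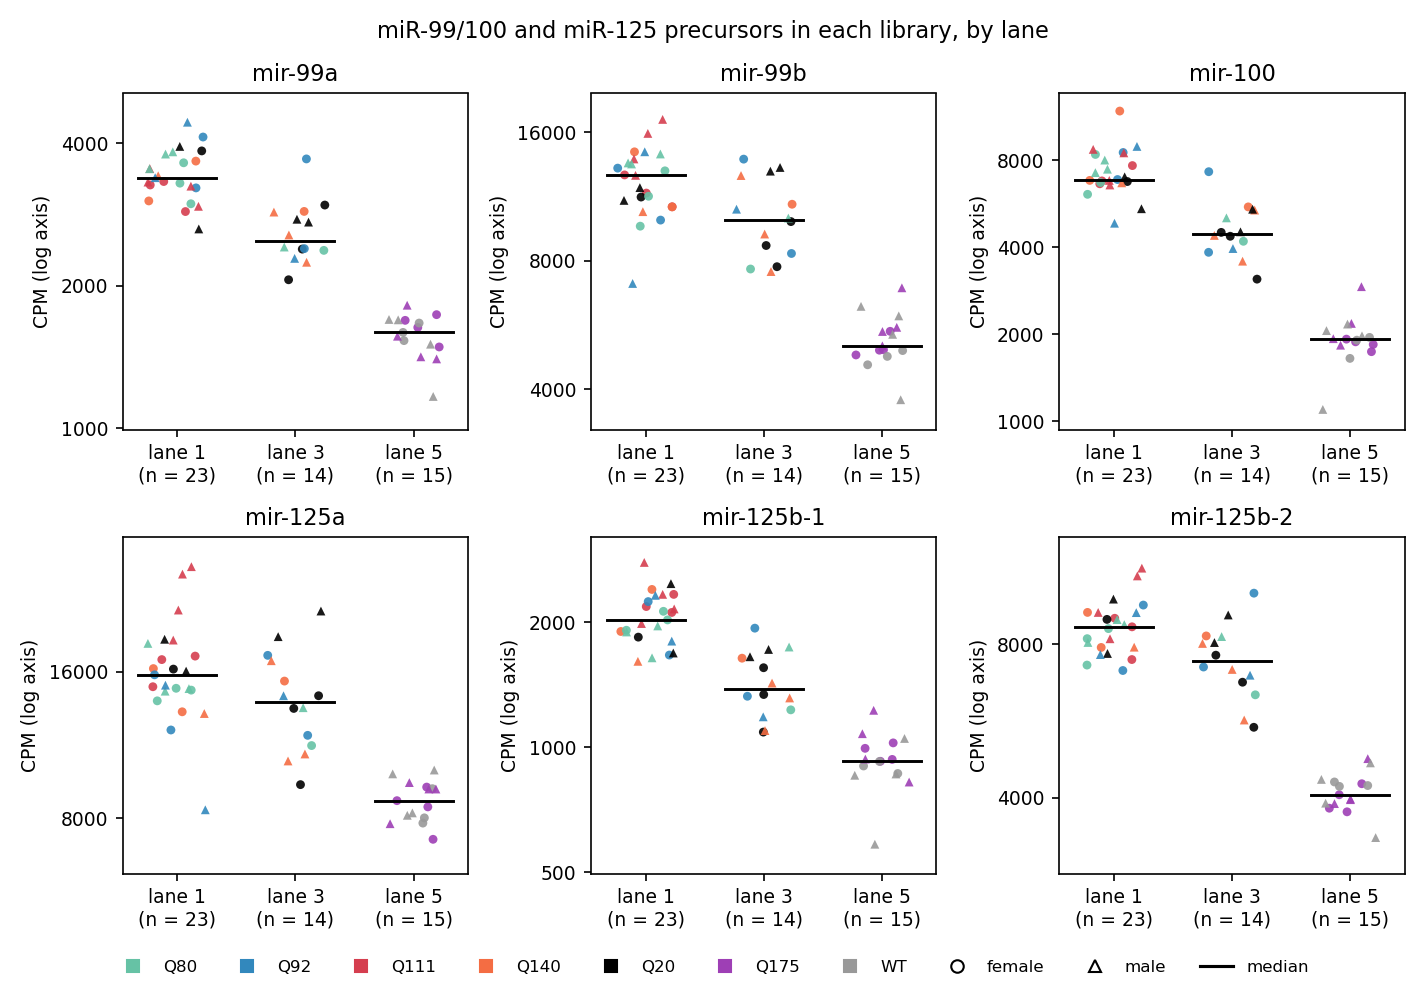
CPM (log axis) of each precursor in every library, by lane, coloured by genotype, with circles for females, triangles for males and a line at the median. The lane 5 median (Q175 and WT) is the lowest in all 6 panels, and lane 1 medians lie above lane 3 medians, from 6853 against 4446 CPM for mir-100 to 15782 against 13897 CPM for mir-125a.

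The Q175 and WT libraries of lane 5 held less of all 6 precursors than the Q20 to Q140 libraries. This is a description with no test, because genotype moves with library series here and, except between WT and Q20, with housing. mir-100 had 1100, 1924 and 2921 CPM in lane 5 (lowest, median, highest), while the lowest of the 37 other libraries had 3102 CPM. The difference in mean log2 CPM, lane 5 minus lanes 1 and 3, was -1.67 for mir-100, -1.12 for mir-99b and -0.99 for mir-125b-2. It was -0.98 for mir-99a, -0.95 for mir-125b-1 and -0.80 for mir-125a. In CPM the 2 sets of libraries did not overlap for mir-99a, mir-99b, mir-100 and mir-125b-2. In RPKM they did not overlap for mir-125b-2 alone, with a highest value of 73177 RPKM in lane 5 and a lowest of 74912 RPKM in lanes 1 and 3. The RPKM values of mir-100 overlapped, with 39753 RPKM as the highest in lane 5 and 36689 RPKM as the lowest in lanes 1 and 3, and so did those of mir-99a (30445 and 29955 RPKM) and mir-99b (107520 and 80449 RPKM). In CPM, for mir-125a 2 libraries and for mir-125b-1 3 libraries of lanes 1 and 3 lay below the highest lane 5 value. Over 356 precursors the median difference was 0.01, and 32 of them (8.99%) lay below -1, as did 2 of the 6 members. The share of all precursors without overlap between the 2 sets was not counted, so the lack of overlap cannot be called particular to the members.

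Within a library the members did not keep one ratio to each other. RPKM divides by hairpin length, 80 bases for mir-100 and 65 for mir-99a, so the ratios below are not ratios of counts. In RPKM, mir-100 stood at 1.74 ± 0.279 times mir-99a in lane 1 (SD, n = 23), at 1.44 ± 0.207 times in lane 3 (SD, n = 14) and at 0.997 ± 0.130 times in lane 5 (SD, n = 15). mir-100 over mir-125b-1, its partner on chromosome 9, was 3.45 ± 0.521 in lane 1, 3.10 ± 0.399 in lane 3 and 2.004 ± 0.247 in lane 5. mir-99a over mir-125b-2, its partner on chromosome 16, was 0.436 ± 0.0512, 0.383 ± 0.0376 and 0.419 ± 0.0270 in lanes 1, 3 and 5. The ratios of mir-100 to mir-99a and to mir-125b-1 were thus lowest in lane 5.

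mir-125b-2 over mir-125b-1, which share their 5p strand, was 4.61 ± 0.507 in lane 1, 5.66 ± 0.434 in lane 3 and 4.85 ± 0.637 in lane 5. mir-125a over mir-99b on chromosome 17 was 1.37 ± 0.213 in lane 1, 1.43 ± 0.133 in lane 3 and 1.73 ± 0.238 in lane 5. These ratios are descriptions and were not tested.

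**Figure D2:**
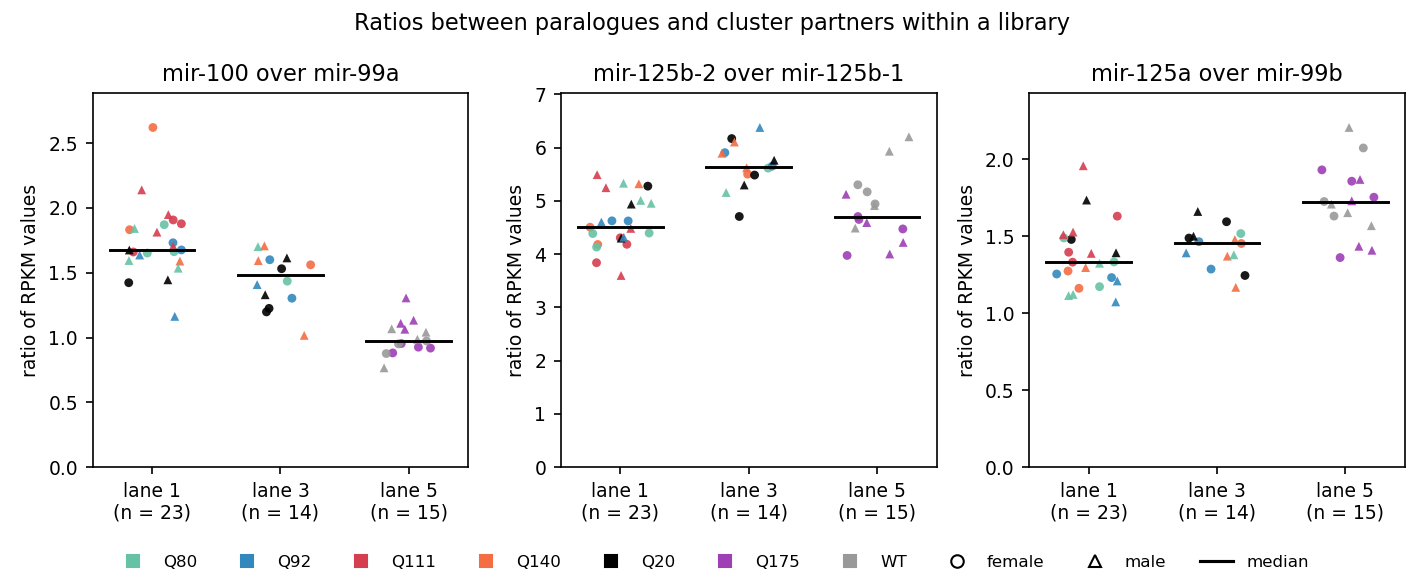
Ratio of RPKM values within each library for 3 pairs of precursors, by lane, with the symbols of the plot of levels and a line at the median. mir-100 over mir-99a has a median of 1.68 in lane 1, 1.48 in lane 3 and 0.974 in lane 5.

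Q175 was compared with WT within lane 5 to ask whether the longest allele goes with a change in these miRNAs. 0 of the 6 members passed the edgeR test, against 14 of 308 precursors (4.55%), and DESeq2 (8.44% of precursors) and limma (2.92%) also called 0 members. No member had an unadjusted p under 0.05, against 24% of precursors. mir-125b-1 had the largest log2 change, 0.19 (95% interval -0.04 to 0.43, edgeR adjusted p = 0.303), with 824, 965 and 1226 CPM in Q175 libraries (lowest, median, highest) and 584, 864 and 1049 CPM in WT libraries. mir-100 followed at 0.14 (-0.15 to 0.44). The other 4 lay between -0.04 and 0.09, and the intervals of mir-99a, mir-125a and mir-125b-2 did not reach beyond 0.21 in either direction.

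The Q80, Q92 and Q140 comparisons share the Q20 libraries as their controls. edgeR called 0 of 6 members for Q80, Q92 and Q140 alike, against 1.45%, 4.06% and 0.29% of the 345 precursors. DESeq2 called 0 members in each, against 1.45%, 4.35% and 4.06% of precursors, and limma called 0 members, against 3.19%, 0.58% and 1.16%. 0 members had an unadjusted edgeR p under 0.05, against 15.1%, 18% and 18.8% of precursors. mir-100 had the largest positive log2 change in all 3, at 0.38 for Q80 (-0.05 to 0.81), 0.29 for Q92 (-0.15 to 0.73) and 0.33 for Q140 (-0.11 to 0.78). mir-125a had the lowest, at -0.13, -0.23 and -0.19 in the same order. Lane 1 holds 6 of 8 Q80 libraries, 4 of 7 Q92 and 3 of 7 Q140, against 3 of 8 Q20. With lane as a covariate the median change of the 6 members was -0.03 for Q80, 0.008 for Q92 and -0.004 for Q140. With sex alone it was 0.12, 0.08 and 0.02. Over the other settings mir-100 ran from 0.12 to 0.63 for Q80, 0.14 to 0.54 for Q92 and -0.14 to 1.02 for Q140.

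For Q140 against Q20 all 6 estimates were positive in females and negative in males, and none passed the adjusted test. In females alone 5 of 6 members had an unadjusted edgeR p under 0.05, against 19.8% of precursors, with log2 changes from 0.37 for mir-125a to 1.02 for mir-100 and edgeR adjusted p between 0.0895 and 0.312. In males alone 2 of 6 did, mir-125a (-0.51) and mir-125b-1 (-0.44), against 5.68% of precursors, with changes from -0.51 to -0.09 and edgeR adjusted p between 0.577 and 0.901. The difference between the sexes was tested over repeat length only, with its result beside the slopes. The lane and the 2 Q140 libraries that go against their sex labels move with these values. Q140 against Q80 gave 0 members and 0% of precursors, by DESeq2 and limma as well, with 0 members and 3.19% of precursors at an unadjusted p under 0.05, and member changes between -0.14 and -0.04.

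Against Q20, Q111 had the largest log2 change of any allele for mir-99b, mir-100, mir-125a, mir-125b-1 and mir-125b-2, and for mir-99a Q92 had the largest (0.21). All Q111 libraries are in lane 1, while 5 of the 8 Q20 libraries are in lane 3. edgeR called 0 of the 6 members and 0% of the 345 precursors. 5 of 6 members had an unadjusted p under 0.05, against 56 precursors (16.2%), of which 27 were higher and 29 lower in Q111. mir-125b-1 had 1983, 2179 and 2782 CPM in Q111 libraries (lowest, median, highest), against 1087, 1667 and 2474 CPM in Q20 libraries, a log2 change of 0.47 (SE 0.16, edgeR adjusted p = 0.267).

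Every Q111 library thus lay above the Q20 median of mir-125b-1, and the groups overlapped. mir-100 had 6562, 6805 and 8712 CPM in Q111 libraries and 3102, 4966 and 7002 CPM in Q20 libraries, a log2 change of 0.55 (SE 0.22, edgeR adjusted p = 0.267). The log2 change was 0.33 for mir-125a and mir-99b, 0.24 for mir-125b-2 and 0.17 for mir-99a, with edgeR adjusted p between 0.267 and 0.673. limma on log2(RPKM + 1) called mir-125b-1 (0.66, adjusted p = 0.0464) and 0.58% of precursors, on a scale where the median of all precursors stood 0.20 higher than in edgeR. DESeq2 called 0 members and 0.58% of precursors.

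Within lane 1, where 7 Q111 and 3 Q20 libraries can be compared, mir-125b-1 had 1983, 2179 and 2782 CPM in Q111 and 1685, 1839 and 2474 CPM in Q20. The log2 changes of the 6 members there ran from -0.09 for mir-99a to 0.26 for mir-99b, with edgeR adjusted p of 0.930 or more. With lane as a covariate they ran from -0.12 for mir-99a to 0.25 for mir-125a, and that of mir-100 was 0.14.

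**Figure D3:**
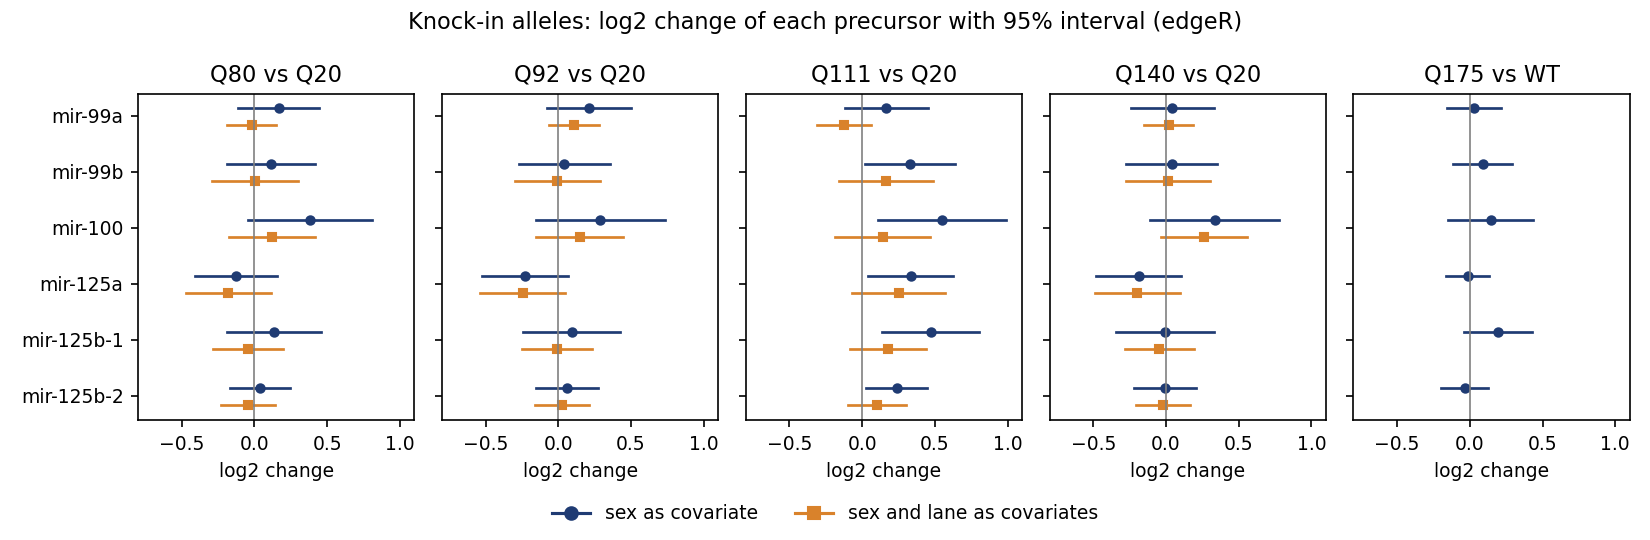
log2 change with its 95% interval for each precursor in 5 comparisons of a longer allele with its control, from edgeR with sex as a covariate (circles) and, where a series has more than 1 lane, with sex and lane (squares). In the Q111 panel 5 intervals with sex alone lie above 0, and with lane added all 6 span 0.

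A slope over repeat length in the 37 libraries from Q20 to Q140 called 0 of 6 members and 0.29% of precursors. DESeq2 (1.74% of precursors) and limma (0.29%) also called 0 members. 0 members had an unadjusted p under 0.05 in edgeR, against 16.2% of precursors. mir-100 had the steepest slope, a log2 change of 0.36 per 100 repeats (95% interval 0.00 to 0.72, edgeR adjusted p = 0.293), and 0.03 in males alone. The other 5 ran from 0.00 for mir-125a to 0.14 for mir-125b-1. With lane as a covariate the median slope of the 6 members was 0.02, against 0.10 with sex alone.

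Females and males differed in many precursors, but none of the 6 members passed the test. Each such difference is also one between the periovarian and epididymal depots. With every library in the fit and genotype as covariate, edgeR called 0 members against 172 of 356 precursors (48.3%). DESeq2 (50.3% of precursors) and limma (43%) called 0 members. 1 member, mir-99b, had an unadjusted edgeR p under 0.05, against 54.8% of precursors. The chromosome 17 pair came nearest, mir-99b at a log2 change of -0.16, female over male (95% interval -0.31 to -0.01, edgeR adjusted p = 0.0733), and mir-125a at -0.14 (-0.28 to 0.00, edgeR adjusted p = 0.0995). The other 4 lay between -0.06 and 0.01.

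In the Q20 to Q140 series mir-99b had 7652, 10779 and 14396 CPM in females (lowest, median, highest), against 7078, 12682 and 17148 CPM in males. In the WT and Q175 series it had 4565, 4929 and 5467 CPM in females, against 3780, 5524 and 6914 CPM in males. Every female value lay within the male range in both series. Tested apart, each series gave 0 called members, against 30.5% of precursors in the WT and Q175 series and 36.2% in the other. DESeq2 called 0 members in each (35.4% and 40.6% of precursors, in that order), as did limma (29.5% and 34.8%). 0 members had an unadjusted p under 0.05 in either series, against 43.8% and 46.7% of precursors.

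The chromosome 17 pair passed under some alternatives. Without the 2 Q140 libraries that go against their sex labels, both mir-99b (-0.19) and mir-125a (-0.16) passed, among 192 of 355 precursors. Without the 15 libraries above 5 on principal component 1, mir-125a passed (log2 change -0.25, edgeR adjusted p = 0.0120), among 126 of 334 precursors. Leaving out Q140_F replicate 2, Q140_M replicate 3 or Q92_M replicate 2 called mir-99b, and the last of these also called mir-125a. Fits over all libraries with 1 left out called 160 to 183 precursors. In the WT and Q175 series mir-99b passed without WT_M replicate 2 (-0.22). Fits of that series with 1 library left out called 77 to 107 precursors. In the Q20 to Q140 series without the 2 Q140 libraries, edgeR called 0 members, against 151 of 341 precursors. There 2 members had an unadjusted edgeR p under 0.05, against 177 of 341 precursors. In the same series mir-125a passed without the libraries above 5 on that component (-0.30), among 118 of 326 precursors. Over all lanes and genotypes mixed, mir-125a had a median of 10840 CPM in those 15 libraries and 14290 CPM in the other 37, and mir-99b had 9240 CPM and 10560 CPM. The part of that component in the sex differences was not tested.

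**Figure D4:**
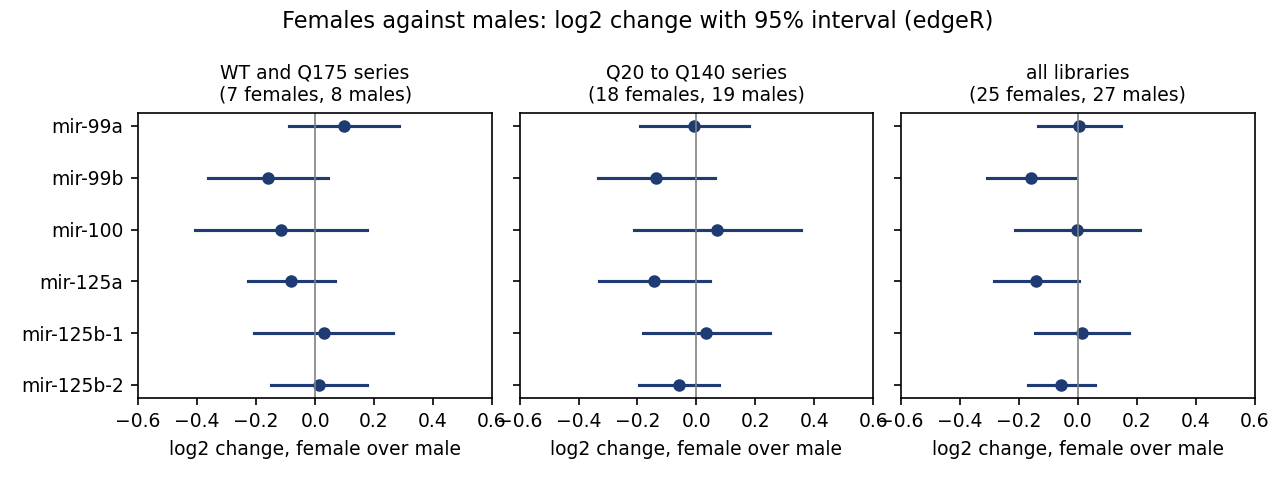
log2 change, female over male, with its 95% interval for each precursor in both library series and in all libraries (edgeR, genotype as covariate). mir-99b and mir-125a lie below 0 in all 3 panels, at -0.16 and -0.14 over all libraries, and every interval spans 0 except that of mir-99b over all libraries (-0.31 to -0.01).

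The product of sex and genotype asked whether allele effects differ between the sexes. For Q175 against WT it called 0 of 6 members and 0% of precursors, by DESeq2 and limma as well. 0 members and 5.19% of precursors had an unadjusted p under 0.05, and members ran from -0.33 for mir-100 to -0.03 for mir-125a.

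For repeat length, edgeR, DESeq2 and limma called 0 of 6 members and 0% of precursors. 4 of 6 members had an unadjusted edgeR p under 0.05, against 5.22% of precursors, with all 6 estimates positive. The difference in slope, female minus male, was 0.75 per 100 repeats for mir-100, 0.73 for mir-125b-1, 0.52 for mir-99b and mir-125a, 0.44 for mir-125b-2 and 0.34 for mir-99a, with edgeR adjusted p between 0.828 and 0.861. With limma 0 members had an unadjusted p under 0.05, against 25 of 345 precursors.

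The values of mir-125b-1 at both ends of the repeat range are as follows. In females it had 1898, 2396 and 1637 CPM in Q140, against 1553, 1087, 1339 and 1839 CPM in Q20, and all but one Q20 value lay below the Q140 values. In males it had 1096, 1426, 1313 and 1609 CPM in Q140, against 1685, 2474, 1718 and 1650 CPM in Q20, where every Q140 value lay below every Q20 value in CPM. In RPKM the males overlapped, since Q140_M replicate 4 had 22363 RPKM and the 4 Q20 males had 18912 to 21247 RPKM. The lane moved with these values, as 3 of 4 Q20 females and 3 of 4 Q140 males are in lane 3. The libraries labelled Q140_F replicate 2 (2396 CPM) and Q140_M replicate 4 (1609 CPM) are also among them.

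With lane as a covariate the 6 differences ran from 0.15 to 0.50. Of them 3 had an unadjusted p under 0.05, against 12 of 345 precursors. Without the 2 Q140 libraries the differences ran from 0.27 to 0.62, with 2 under 0.05, against 9 of 341 precursors. Without the libraries above 5 on principal component 1 they ran from 0.15 to 0.52, and in lane 1 alone from 0.13 to 0.51. In both, 0 members were under 0.05, against 16 of 326 and 26 of 319 precursors. In lane 3 alone the median difference of the 6 was 0.51, with 2 members under 0.05, against 11 of 303 precursors. DESeq2 had 5 members under 0.05, against 21 of 345 precursors, and the replicate block had 4, against 11 of 345. In females alone all 6 members had an unadjusted p under 0.05 for the slope, against 22.4% of precursors, with slopes of 0.34 to 0.83 per 100 repeats and adjusted p between 0.0667 and 0.209. In males alone 0 members did, against 3.47% of precursors, with slopes of -0.20 to 0.03.

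The members also varied together inside the groups. After the mean of each genotype and sex group was taken away, Spearman's rho of log2 CPM between pairs of members ran from 0.39 (mir-99a with mir-125a) to 0.83 (mir-99a with mir-100), over 52 libraries that share lanes and depth. For each member the closest of 355 other precursors was another member. Cluster partners stood at 0.81 for mir-100 with mir-125b-1, 0.80 for mir-99a with mir-125b-2 and 0.72 for mir-99b with mir-125a.

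Pairs from different clusters were as high, such as 0.82 for mir-99b with mir-100. Counts that are not whole occur in mir-99a, mir-100, mir-125b-1 and mir-125b-2, and the part of reads divided between them in these values was not tested. With lane taken away as well, 46 libraries in groups of at least 2 gave 0.49 for mir-99a with mir-125a and 0.92 for mir-99b with mir-100. Outside the 6, the closest precursor reached 0.65 for mir-99a and 0.55 for mir-125b-2, and the median over 350 precursors was between -0.01 and 0.06. It was MI0004703 for 4 members and MI0018008 for mir-125a and mir-125b-2, neither of which the files name. With group means left in, members' levels had a negative rho with a library's total count, between -0.51 and -0.33 over the 52 libraries. These values take in the differences between library series, lanes and groups, and the relation within groups was not tested.

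**Figure D5:**
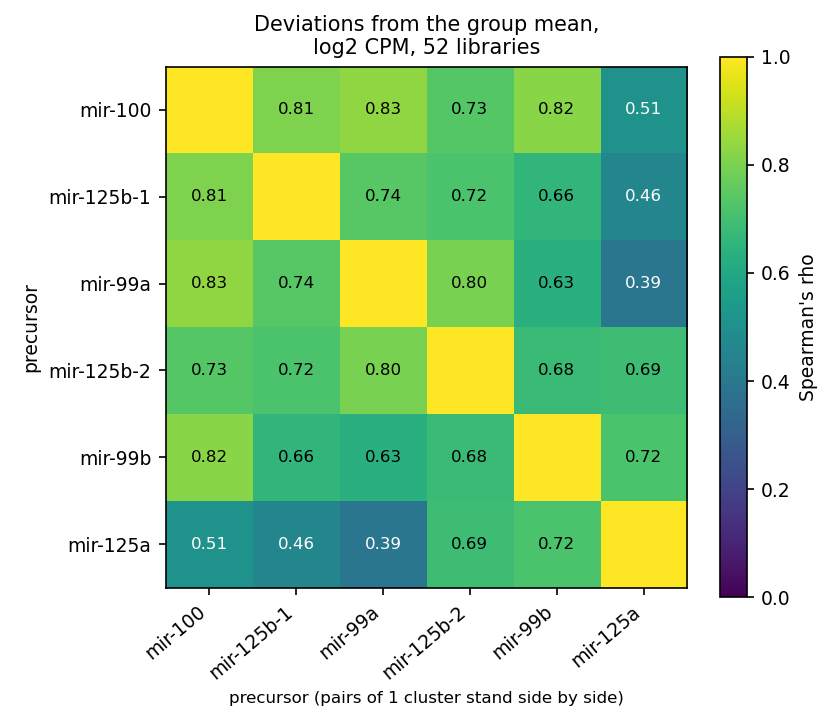
Spearman's rho between the precursors' log2 CPM after the mean of each genotype and sex group was taken away, over 52 libraries, with cluster partners side by side. mir-125a has the lowest values, 0.39 with mir-99a and 0.46 with mir-125b-1, and the highest value is 0.83 for mir-99a with mir-100.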

How the data were processed

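Estimated counts and RPKM values, each in a table the authors deposited, cover 1187 precursors in 52 libraries. In the estimated counts, 89.06% of values were whole within 0.0001. Tests had been planned for whole counts, so each value was rounded first. Per the submitters' processing notes CASAVA 1.8.2 was used, and the sources used here name no aligner, genome build, miRBase release or counter. No accession appeared in the 13 reference files searched, so lists of relatives and of tissue markers, fixed by name, could not be matched and were not analysed here.

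In R 4.3.3, edgeR 4.0.16 with TMM factors and robust quasi-likelihood F tests was run on every precursor that reached 10 counts in 7 or more libraries of a fit, and Benjamini-Hochberg adjusted p under 0.05 was the threshold. Fits used sex or genotype as a covariate, within the WT and Q175 series (15 libraries) or the Q20 to Q140 series (37 libraries). Alternatives were DESeq2 1.42.0, its size factors, limma 3.58.1 on log2(RPKM + 1), no filter, removal of the 5 most abundant precursors, lane, a replicate block, subsets of libraries and each library left out. The lane comparison and the fits in 1 lane were chosen after seeing the data. On simulated data the edgeR step was tested beforehand.

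The members, lists and tests were chosen with earlier results of these data known. All 6 members are named in every comparison, and the other precursors named are those most alike in pattern and the one that separated the sexes, which was chosen after its values were seen. Each library's depth sets the precision of its values, and the lowest estimated count of a member in a library was 1689.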

Additional observations from a re-analysis of the deposited data

Results flagged for a closer look

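In groups of 4 libraries, a library was set apart where its gap to the nearest other exceeded 0.829 of the group's range (Dixon's test). Chance alone does this in about 1 in 20 groups, and it happened in 4 of 60 tests. mir-99a stood at 3936 CPM in Q20_M replicate 2, with the other Q20 males between 2635 and 2762 CPM. In the same library mir-125b-1 stood at 2474 CPM, with the others between 1650 and 1718 CPM. mir-125b-2 stood at 4772 CPM in Q175_M replicate 1, with the others between 3896 and 3978 CPM. mir-125a was low in Q175_M replicate 4, at 7789 CPM, with the others between 9182 and 9467 CPM. Q20_M replicate 2 has the lowest TMM factor of the 52 libraries (0.603), and in RPKM it does not stand apart. Its mir-99a level was 36511 RPKM, with the other Q20 males between 37497 and 39366 RPKM, and its mir-125b-1 level was 19366 RPKM, with the others between 18912 and 21247 RPKM. In RPKM mir-125b-2 was still highest in Q175_M replicate 1 (73177 RPKM, others 49220 to 61631) and mir-125a lowest in Q175_M replicate 4 (103560 RPKM, others 118650 to 151560).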

How the results depend on the processing

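In 3420 refits of single members, 285 gave the opposite sign, 127 under another setting and 158 with 1 library left out, and none of these passed the test before or after. 14 refits lost a call, all in the lane comparison, and 11 gained one, 10 of them outside it. Members called went to 1 for Q111 against Q20 with limma. Without the libraries above 5 on principal component 1 (called high-scoring here), they went to 1 for sex within the Q20 to Q140 series and 1 over all libraries. For sex over all libraries without the 2 Q140 libraries that go against their sex labels, members called went to 2. For lane in males alone they went to 2, among 8 of 317 precursors. With 1 library left out they ran from 0 to 1 for sex within the WT and Q175 series (mir-99b, without WT_M replicate 2), from 0 to 2 for sex over all libraries and from 3 to 5 for lane. limma shifted the median of all precursors by 0.24 for Q80, 0.20 for Q111, 0.16 for Q140, 0.13 for the slope, 0.11 and 0.10 for sex in the Q20 to Q140 series and over all libraries, 0.14 for sex by Q175 and -0.29 for sex by repeat length. In lane 1 alone that median moved by 0.10 for Q111 and 0.11 for sex by repeat length. The causes of these moves were not tested.

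Replicate numbers did not pair the libraries, since 15 of 60 same-numbered pairs had deviations correlated over 0.1 and 0 of 17 pairs of groups had all of them so. The replicate block kept 0 members called in each genotype, slope, sex and interaction comparison and 4 for lane, where it called 30 of 345 precursors.

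Counts of precursors called moved by over 1.5 times in most genotype comparisons. Q175 against WT gave 14, and 0 to 26 under other settings. Q80 gave 5 (0 to 11), Q92 14 (0 to 15), Q111 0 (0 to 2), Q140 1 (0 to 14) and the slope 1 (0 to 6). Sex gave 94 (16 to 109) in the WT and Q175 series, 125 (36 to 152) in the other and 172 (126 to 200) over all libraries, and lane gave 34 (6 to 39). With 1 library left out the count ran from 0 to 37 for Q175, 0 to 14 for Q80, 1 to 18 for Q92, 0 to 2 for Q111, 0 to 6 for Q140, 0 to 2 for the slope, 0 to 4 for sex by Q175 and 26 to 46 for lane, and for sex from 77 to 107, 116 to 141 and 160 to 183 in the order above. Q111 against Q20 in lane 3 alone and sex by Q175 without the high-scoring libraries could not be fitted.

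The members' log2 changes whose sign turned are given by comparison, with the value of the report in parentheses. In Q175 against WT, mir-99a (0.03) became -0.01 with limma, -0.03 without the high-scoring libraries, -0.02 in females alone. mir-100 (0.14) became -0.05 without the high-scoring libraries and in females alone. mir-125a (-0.01) became 0.02 with DESeq2 and DESeq2 size factors, 0.03 with no filter, 0.05 without the 5 most abundant precursors, 0.10 in males alone. mir-125b-2 (-0.04) became 0.00 with DESeq2 and DESeq2 size factors, 0.01 with no filter, 0.03 without the 5 most abundant precursors, 0.16 in males alone. For Q175 against WT single-library omissions gave mir-99a -0.03 to 0.10, mir-125a -0.04 to 0.06, mir-125b-2 -0.08 to 0.02. In Q80 against Q20, mir-99a (0.17) became -0.02 with lane as covariate. mir-99b (0.11) became -0.14 in lane 3 alone. mir-125a (-0.13) became 0.13 with limma, 0.14 in females alone. mir-125b-1 (0.13) became -0.05 with lane as covariate, -0.06 in lane 1 alone, -0.03 in males alone. mir-125b-2 (0.04) became -0.04 with lane as covariate, -0.06 in lane 1 alone. For Q80 against Q20 single-library omissions gave mir-125b-2 -0.01 to 0.12. In Q92 against Q20, mir-99b (0.04) became -0.01 with lane as covariate, -0.14 in males alone. mir-125a (-0.23) became 0.13 in females alone. mir-125b-1 (0.09) became -0.01 with lane as covariate, -0.02 in males alone. mir-125b-2 (0.06) became -0.01 in lane 1 alone, -0.06 in males alone. For Q92 against Q20 single-library omissions gave mir-99b 0.00 to 0.18. In Q111 against Q20, mir-99a (0.17) became -0.12 with lane as covariate, -0.09 in lane 1 alone. In Q140 against Q20, mir-99a (0.04) became -0.03 without the 2 Q140 libraries, -0.09 in males alone. mir-99b (0.04) became -0.02 without the 2 Q140 libraries, -0.05 in lane 3 alone, -0.27 in males alone. mir-100 (0.33) became -0.14 in males alone. mir-125a (-0.19) became 0.37 in females alone. mir-125b-1 (-0.01) became 0.06 with DESeq2 and DESeq2 size factors, 0.05 with no filter, 0.15 with limma, 0.09 without the 5 most abundant precursors, 0.10 without the high-scoring libraries, 0.08 in lane 1 alone, 0.66 in females alone. mir-125b-2 (-0.01) became 0.06 with DESeq2 and DESeq2 size factors, 0.05 with no filter, 0.16 with limma, 0.09 without the 5 most abundant precursors, 0.08 without the high-scoring libraries, 0.07 in lane 1 alone, 0.03 in lane 3 alone, 0.45 in females alone. For Q140 against Q20 single-library omissions gave mir-99a -0.05 to 0.20, mir-99b -0.09 to 0.18, mir-125b-1 -0.15 to 0.17, mir-125b-2 -0.09 to 0.12. In Q140 against Q80, mir-99a (-0.12) became 0.04 with lane as covariate, 0.05 in lane 1 alone, 0.11 in lane 3 alone, 0.17 in females alone. mir-99b (-0.07) became 0.01 with lane as covariate, 0.06 in lane 1 alone, 0.10 in lane 3 alone, 0.32 in females alone. mir-100 (-0.05) became 0.14 with lane as covariate, 0.31 in lane 1 alone, 0.48 in females alone. mir-125a (-0.06) became 0.04 in lane 1 alone, 0.02 in lane 3 alone, 0.23 in females alone. mir-125b-1 (-0.14) became 0.00 with lane as covariate, 0.14 in lane 1 alone, 0.24 in females alone. mir-125b-2 (-0.04) became 0.02 with lane as covariate, 0.13 in lane 1 alone, 0.27 in females alone. For Q140 against Q80 single-library omissions gave mir-99b -0.21 to 0.01, mir-100 -0.31 to 0.08, mir-125a -0.15 to 0.01, mir-125b-2 -0.13 to 0.03. In the repeat length slope, mir-99a (0.08) became 0.00 with lane as covariate, -0.01 in lane 1 alone, -0.04 in males alone. mir-99b (0.12) became -0.02 in lane 3 alone, -0.09 in males alone. mir-125a (0.00) became 0.04 with DESeq2 and DESeq2 size factors, 0.03 with no filter and without the 2 Q140 libraries, 0.11 with limma, 0.06 without the 5 most abundant precursors, 0.02 with the replicate block, 0.07 without the high-scoring libraries, 0.14 in lane 1 alone, 0.36 in females alone. mir-125b-1 (0.14) became -0.03 in lane 3 alone, -0.16 in males alone. mir-125b-2 (0.07) became -0.09 in males alone. For the repeat length slope single-library omissions gave mir-125a -0.06 to 0.08. In sex in the WT and Q175 series, mir-100 (-0.12) became 0.14 without the high-scoring libraries. mir-125b-1 (0.03) became -0.04 with DESeq2 and DESeq2 size factors, 0.00 with no filter. mir-125b-2 (0.01) became -0.05 with DESeq2 and DESeq2 size factors, -0.02 with no filter and without the 5 most abundant precursors. For sex in the WT and Q175 series single-library omissions gave mir-125b-1 -0.05 to 0.07, mir-125b-2 -0.03 to 0.04. In sex in the Q20 to Q140 series, mir-99a (-0.01) became 0.09 with limma, 0.01 without the 5 most abundant precursors, 0.05 without the high-scoring libraries, 0.02 in lane 3 alone. mir-100 (0.07) became -0.02 without the 2 Q140 libraries, -0.04 in lane 3 alone. mir-125b-1 (0.03) became -0.04 without the 2 Q140 libraries, -0.07 in lane 3 alone. mir-125b-2 (-0.06) became 0.03 with limma. For sex in the Q20 to Q140 series single-library omissions gave mir-99a -0.05 to 0.05, mir-100 -0.03 to 0.15, mir-125b-1 -0.03 to 0.10. In sex over all libraries, mir-99a (0.00) became 0.00 with DESeq2 and DESeq2 size factors and without the 2 Q140 libraries. mir-100 (0.00) became 0.00 with no filter and the replicate block, 0.09 with limma, 0.05 without the 5 most abundant precursors, 0.06 without the high-scoring libraries. mir-125b-1 (0.01) became -0.02 without the 2 Q140 libraries. mir-125b-2 (-0.06) became 0.04 with limma. For sex over all libraries single-library omissions gave mir-99a -0.02 to 0.05, mir-100 -0.06 to 0.05, mir-125b-1 -0.02 to 0.05. In sex by Q175, mir-99a (-0.06) became 0.08 with limma. mir-99b (-0.09) became 0.05 with limma. mir-125a (-0.03) became 0.12 with limma, 0.02 without the 5 most abundant precursors. For sex by Q175 single-library omissions gave mir-99a -0.19 to 0.03, mir-99b -0.24 to 0.03, mir-125a -0.16 to 0.03. In lane 1 against lane 3, mir-125a (0.14) became -0.05 in males alone.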
